A study of Rattus norvegicus with 218 samples.

Results

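The transcripts of the histamine receptor genes Hrh1, Hrh3 and Hrh4 were examined in neurons of the vagal dorsal motor nucleus (DMV), a brainstem cell group that sends parasympathetic motor fibres to the heart and the viscera. They are 3 of the 165 genes on the panel, each read by 1 of 168 assays, and were found by their symbols. These genes were selected on measured values, from earlier results on the same table. Hrh1 had the smallest p for preconditioned against sham animals in pooled neurons and often gave late threshold cycles. The study itself had singled out Hrh1 for preconditioning and Hrh3 for sham surgery. Hrh4 had the smallest p by level for left against right. Those comparisons are therefore described without a test. Hrh1 and Hrh3 had been noticed in the pools that are set against single neurons here, and the study had looked at its single neurons too when it singled out genes by treatment. Single neurons against pools and treatments in single neurons are therefore described without a test for Hrh1 and Hrh3, and tested for Hrh4.

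Neurons of male Sprague Dawley rats were stained for NeuN, cut out by laser capture one at a time or in pools of 2 to 8 cells, and assayed by microfluidic RT-qPCR. Animals were naive (3 rats), sham (4 rats, given ketamine/xylazine and surgical exposure of the vessels with no ligation) or subjected to remote ischemic preconditioning, RIPC (3 rats, both femoral arteries ligated and then released), with tissue taken 2.5 hours after reperfusion. The labels give 3 biological replicates but number 4 sham animals, and all 4 were used. Naive rats had no operation, so ketamine/xylazine and surgery were shared by sham and RIPC but not by naive animals. The methods give each animal brief isoflurane before decapitation. The study asked how the operation and the preconditioning alter DMV neurons, and on which side.

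Histamine in the brain comes mainly from neurons of the tuberomammillary nucleus, whose axons reach the brainstem autonomic nuclei. The H1 receptor couples to Gq and phospholipase C and usually excites the cell. The H3 receptor couples to Gi/o and is best known as a presynaptic brake on the release of histamine and other transmitters. The H4 receptor also couples to Gi/o and is known chiefly from immune cells, and the H2 receptor couples to Gs.

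Of 213 samples from 10 animals, 186 gave a threshold cycle (Ct) in at least 25% of the assays and were used. These were 98 single neurons and 88 pools: 57 and 24 from naive, 16 and 46 from sham and 25 and 18 from RIPC animals. A Ct is the amplification cycle at which fluorescence crosses a threshold, so a lower Ct means more transcript, and a missing Ct is a value below the limit of detection. The number of assays with a Ct ran from 44 to 149 in single neurons, with a median of 69, and from 43 to 135 in pools, with a median of 96. Naive replicate 3 gave 54 of the 57 naive single neurons. The neuronal transcripts Camk2a, Scn2a and Rgs4 were found in 86.7% to 96.9% of the single neurons and Chat, the acetylcholine-synthesising enzyme, in 69.4%. Gfap, an astrocyte transcript, was found in 80.6% of them. In pools, more positive cells and more RNA per cell cannot be told apart.

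The 3 receptors differed in how widely they were detected. Hrh4 gave a Ct in 158 of 186 samples (84.9%), which placed it 22nd among the 165 genes. Hrh3 was found in 106 samples (57%, 76th) and Hrh1 in 53 (28.5%, 106th). Hrh2, the remaining histamine receptor on the panel, was found in 153 (82.3%).

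The Ct values set Hrh1 apart in a further way. In single neurons its 24 Ct values ran from 16.4 to 25.2 cycles with a median of 21.5, and in pools its 29 values ran from 17.0 to 24.6 with a median of 20.3. Most of these came late in the run: 36 of 53 (67.9%) were above 20 cycles, against 681 of 14886 values (4.57%) over all genes. Among the 151 genes with at least 10 values, Hrh1 had the highest share of late Ct and the latest median Ct.

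Hrh3 and Hrh4 were read earlier. Hrh3 ran from 11.5 to 23.4 cycles in single neurons (median 17.1) and from 13.8 to 24.2 in pools (median 15.9). Only 5 of its 106 values (4.72%) were above 20 cycles. Hrh4 ran from 9.46 to 26.5 cycles in single neurons (median 15.1) and from 10.9 to 20.4 in pools (median 14.0). Its 8 late values (5.06% of 158) were 7 in single neurons and 1 in a pool, so nearly all of its values were early but a small late tail remained. None of the 153 Hrh2 values was above 20 cycles. Assays differ in amplification efficiency, which was not available here, so a Ct gap between 2 genes is not a ratio of transcripts.

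**Figure D1:**
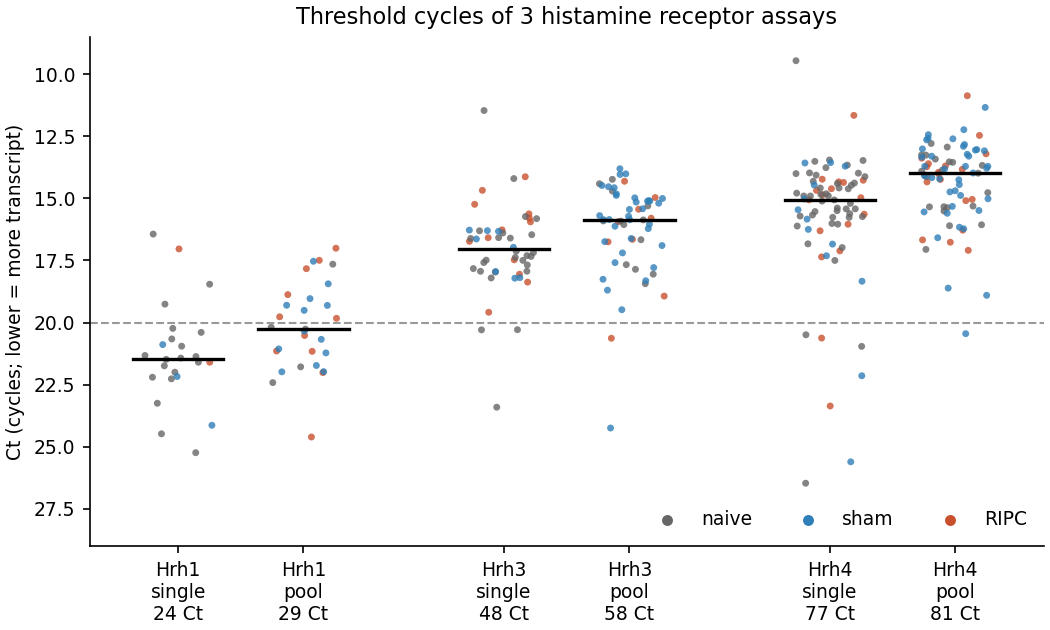
Threshold cycles (cycles, axis turned so that more transcript is higher) of Hrh1, Hrh3 and Hrh4 in single neurons and pools. Each point is a sample with a Ct, coloured by treatment, black lines are medians, and the dashed line marks 20 cycles. Of the Hrh1 values, 36 of 53 lie on the late side of that line, against 5 of 106 for Hrh3 and 8 of 158 for Hrh4.

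The late share of Hrh1 was high in both kinds of sample and in all 3 treatments. It was 83.3% in single neurons (20 of 24) and 55.2% in pools (16 of 29). By treatment, 20 of 24 values were late in naive, 10 of 16 in sham and 6 of 13 in RIPC samples. The treatments differ in sample type here, since 19 of the 24 naive values came from single neurons. In pools alone 4 of 5 naive, 7 of 13 sham and 5 of 11 RIPC values were late. On the left side 17 of 24 were late and on the right 19 of 29. With the limit at 18 cycles 86.8% of the Hrh1 values counted as late, and with 22 cycles 20.8%.

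Second runs of 5 single neurons show how far detection repeated. Hrh1 was found in both runs of 1 neuron, with Ct 24.2 and 26.3, in neither run of 2, and in 1 run only of the other two, at Ct 19.3 and 21.0. For Hrh3 both runs were positive in 2 neurons, 1 run in 1 neuron and neither run in 2, and Hrh4 gave the same counts. Where Hrh4 was found in both runs, its Ct was 14.4 and 13.5 in one neuron and 13.9 and 14.2 in the other.

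Pools were compared with single neurons within animals, over the 8 animals with at least 2 of each. Pools gave more detections of all 3 receptors, and Hrh4, the receptor tested, did not pass the threshold. Hrh1 was found in 39.7% ± 19.6 of pools and 15.6% ± 16.2 of single neurons (mean and SD over 8 animals), a difference of 24.2 percentage points (SE 8.57) that was positive in 6 of 8 animals. The 3 RIPC animals had the largest Hrh1 differences, 50, 40 and 50 points, while naive replicate 3 and sham replicate 4 had fewer positive pools than neurons, at -7.91 and -4.71 points. Hrh4 was found in 93.5% ± 9.41 of pools and 74.6% ± 11.9 of single neurons, 18.9 points apart (SE 7.56, limma adjusted p = 0.0860), and was higher in pools in 7 of 8 animals. Its call depended on the settings, since the adjusted p was 0.0490 when a Ct above 20 counted as not detected and 0.0426 when no gene was filtered out. An exact two-sided sign-flip permutation test over the 8 animals, which can give no p below 0.00781, gave an unadjusted p = 0.0156 for Hrh4, 1 of 14 exact tests computed for the 3 receptors.

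For Hrh3 the size and sign of the difference depended on the samples taken. It was found in 59.7% ± 19.0 of pools and 49.9% ± 11.9 of single neurons, a difference of 9.82 points (SE 8.32) that was positive in 6 of 8 animals. RIPC replicates 1 and 3 went the other way, at -25 and -13.6 points. When both kinds of sample were restricted to those with a Ct in 25% to 50% of the assays, the Hrh3 difference turned to -31.2 points, and with animals that had 1 sample of either kind included it was 19.8 points.

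Over the panel, 23 of 133 genes tested (17.3%) passed the threshold as higher in pools and 0 as lower, and the median difference was 14.9 points. The leading gene was Cebpa, a transcription factor, at 37.1 points (SE 7.73). Hrh2 differed by 24.4 points (SE 9.12, limma adjusted p = 0.0742), close to Hrh1, and passed without RIPC replicate 3 (limma adjusted p = 0.0271), on the arcsine scale (0.0323) and with animals of 1 sample included (0.0402). Of 15 other monoamine receptor genes tested, 5 passed, all higher in pools, with a median of 19.4 points. Among them Htr1f, a Gi-coupled serotonin receptor, was found in 94.4% ± 8.10 of pools and 52.5% ± 26.4 of single neurons, and Htr3b, a subunit of the serotonin-gated channel, in 86.8% ± 16.1 and 48.3% ± 24.7. Htr1b and Htr2a differed by 29.1 points (SE 7.44) and 33.6 points (SE 10.5). Of 6 genes tested of the Gq pathway used by the H1 receptor, 1 passed, Rgs3, a brake on G-protein signalling, at 27.9 points (SE 9.27, limma adjusted p = 0.0486). Of 6 genes tested of the Gi pathway, all of them Hcn channel and presynaptic calcium channel subunits, 0 passed, with a median of 3.42 points. None of these 6 had an unadjusted p under 0.05 by limma, against 46 of all 133 genes. The number of genes past the threshold rested on single animals: it was 5 without sham replicate 1, 12 without RIPC replicate 2, 13 without naive replicate 2, naive replicate 3 or sham replicate 4, and 56 without RIPC replicate 1. Htr1b and Htr3b lost their calls without sham replicate 1 (limma adjusted p = 0.0529 and 0.0532). Among samples with 25% to 50% of the assays the calls of Htr1b (21.4 points, limma adjusted p = 0.421) and Cebpa (43.3 points, 0.0539) were lost. Rgs3 lost its call when any one of RIPC replicates 2 and 3, naive replicates 2 and 3 and sham replicates 1 and 4 was left out, and Htr2a without any one of these or of sham replicate 2. The Rgs3 call was also lost when late Ct were not counted (limma adjusted p = 0.159), on the arcsine scale (0.0559), without the gene filter (0.0859) and among samples with 25% to 50% of the assays (0.367). Htr2a lost its call with animals of 1 sample included (0.176), without the gene filter (0.0967) and at 25% to 50% of the assays, where it differed by 0.20 points.

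If each cell of a pool were positive independently at the single-neuron rate, the share of positive pools would be 66.3% for Hrh1, 91.1% for Hrh3 and 99.1% for Hrh4. The pools measured 33.0%, 65.9% and 92.0%. For Hrh1 the animals differed in direction. In RIPC replicate 3, naive replicate 2 and sham replicate 2 no single neuron was positive, so the arithmetic gives 0% and any positive pool lies above it. Of the other 5 animals, pools lay above it in RIPC replicates 1 and 2 (75% against 66.9% and 50% against 33.3%), which are among the pools Hrh1 was chosen by, and below it in naive replicate 3 and sham replicates 1 and 4. For Hrh3 pools lay below it in all 8 animals, and for Hrh4 in 4. In naive replicate 3, where the single-neuron rate rests on 54 neurons, the arithmetic gives 82.1% for Hrh1 against 3 of 11 pools (27.3%), and 91.8% for Hrh3 against 8 of 11 (72.7%). That animal gave 19 of the 24 Hrh1-positive neurons, and the other animals had at most 11 single neurons each.

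Among detected samples, levels were compared after centring each sample on the median Ct of the 35 most widely detected genes and turning the sign, so that a higher level in cycles means more transcript. Hrh3 had a level of -3.62 ± 0.51 in pools and -2.65 ± 0.72 in single neurons (mean and SD over 6 animals), a difference of -0.97 cycles (SE 0.41). Its level was lower in pools in 4 of 6 animals. Hrh4 differed by 0.58 cycles (SE 0.48, limma adjusted p = 0.755), was higher in pools in 5 of 8 animals, and ran from 3.13 cycles in RIPC replicate 1 to -1.93 in sham replicate 4. Hrh1 had too few animals with a level in both kinds of sample. By limma, 0 of 89 genes (0%) passed, 8 had an unadjusted p under 0.05, and the leading gene Htr1d differed by -1.78 cycles (SE 0.41). Without centring, 11 genes passed and Hrh4 was 1.76 cycles higher in pools (limma adjusted p = 0.0115), while Hrh3 turned to 0.51 cycles higher.

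Detection of Hrh3 rose with the number of assays that worked in a sample. Among samples with 42 to 62 assays detected, Hrh3 was found in 0 of 14 pools and 3 of 31 single neurons (9.68%). A count of 0 of 14 leaves a 95% Wilson interval of up to 21.5%. In the band of 63 to 83 assays it was found in 4 of 11 pools and 27 of 45 neurons, from 84 to 104 in 25 of 33 pools and 13 of 17 neurons, and from 105 assays upward in 29 of 30 pools and 5 of 5 neurons. Its detection thus spanned nearly the whole scale in both kinds of sample.

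Hrh1 and Hrh4 showed no such span. Hrh4 was already found in 11 of 14 pools and 23 of 31 neurons of the lowest band, and in 30 of 30 pools and 5 of 5 neurons of the highest. Hrh1 was found in 4 of 14, 5 of 11, 6 of 33 and 14 of 30 pools from the lowest band to the highest, and in 7 of 31, 7 of 45, 7 of 17 and 3 of 5 neurons. Hrh2 went from 11 of 14 to 30 of 30 pools and from 18 of 31 to 5 of 5 neurons between the lowest and the highest band. The course over all genes is not given here. The number of assays counts the gene itself, and these are descriptions over samples that share animals.

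**Figure D2:**
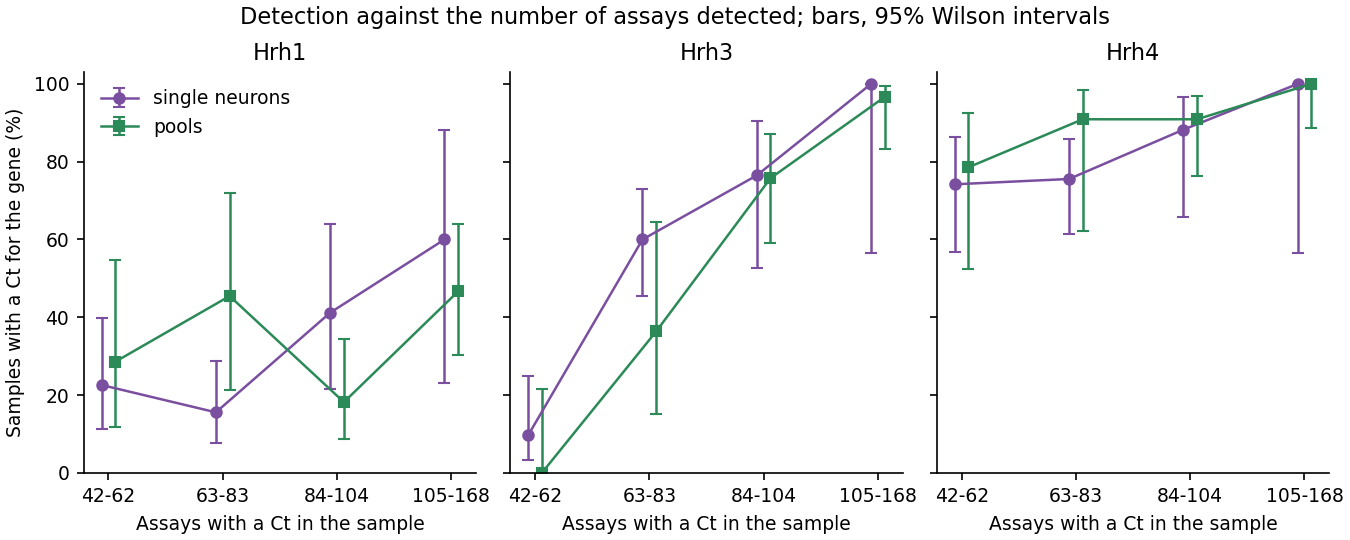
Share of samples with a Ct for each receptor (percent, vertical axis) against the number of assays with a Ct in the sample (4 bands, horizontal axis), for single neurons and pools. Bars are 95% Wilson intervals and cover counting error only. Hrh3 runs from 0 of 14 pools in the lowest band to 29 of 30 in the highest, while Hrh4 starts at 11 of 14 pools and Hrh1 has no steady course.

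The treatments were first set side by side in pools, as a description. Hrh1 was found in 6 of 8, 4 of 8 and 1 of 2 pools of RIPC replicates 1, 2 and 3. In sham animals it was found in 3 of 7, 3 of 11, 1 of 11 and 6 of 17 pools of replicates 1 to 4, and in naive animals in 1 of 3, 1 of 10 and 3 of 11. All 3 RIPC animals thus lay above all sham and all naive animals. RIPC replicate 3 did so by 1 positive pool, at a late Ct of 21.1. With late Ct not counted it had no positive pool and no longer lay above the sham animals. Among pools with at least 50% of the assays, naive replicate 1 (1 of 1) lay above RIPC replicates 2 (4 of 6) and 3 (1 of 2). Over all pools used, the means were 58.3% ± 14.4 in RIPC (n = 3), 28.6% ± 14.5 in sham (n = 4) and 23.5% ± 12.1 in naive animals (n = 3). Hrh1 was the 1 gene of 130 (0.769%) with every RIPC animal above every sham animal, which is the comparison that brought it here, and 4 of 130 genes (3.08%) had every RIPC animal above every naive animal.

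The Hrh1 difference between RIPC and sham pools was 29.7 points, and 11.2 points when a Ct above 20 counted as not detected. These are differences of means over animals. Among pools with at least 50% of the assays it was 46.2 points, with 6 of 9 RIPC and 9 of 35 sham pools positive. Among those with 25% to 50% the sign depended on the averaging: the mean over 2 RIPC and 4 sham animals differed by -3.87 points, while the counts were higher in RIPC, at 5 of 9 pools (55.6%) against 4 of 11 (36.4%). All 5 RIPC positives of that shallower set came from RIPC replicate 1, whose pools had a median of 56.5 assays. The Hrh1 levels of positive pools had medians of -7.18 cycles in RIPC, -7.20 in sham and -8.24 in naive samples, and their ranges overlapped.

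Hrh3 had its highest pool shares in sham animals. It gave a Ct in 5 of 7, 8 of 11, 11 of 11 and 12 of 17 pools of sham replicates 1 to 4. In naive replicates 1 to 3 it was found in 1 of 3, 4 of 10 and 8 of 11, and in RIPC replicates 1 to 3 in 2 of 8, 6 of 8 and 1 of 2. Sham animals overlapped both other groups, through naive replicate 3 and RIPC replicate 2. The means were 78.7% ± 14.2 in sham, 48.7% ± 21.1 in naive and 50% ± 25 in RIPC animals. Sham pools also had the most assays detected, with a median of 100.5 against 94.5 in naive and 85 in RIPC animals. The part of assay number in the difference was not tested. Among pools with at least 50% of the assays, Hrh3 was found in 33 of 35 sham (94.3%), 13 of 19 naive (68.4%) and 8 of 9 RIPC pools (88.9%). As a mean over animals, RIPC differed from sham by -13.1 points in these deeper pools, where RIPC replicate 1 had 1 pool and RIPC replicate 3 had 2. With all pools that difference was -28.7 points, and it was -16.2 points without RIPC replicate 1 and -41.2 without RIPC replicate 2.

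Hrh3 levels over positive pools had close medians, at -3.34 cycles in sham, -3.17 in naive and -3.58 in RIPC samples. Means over animals with at least 2 positive pools lay further apart and were lowest in RIPC. They were -3.35 ± 0.36 in 4 sham, -3.28 ± 0.29 in 2 naive and -4.08 ± 0.51 in 2 RIPC animals.

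Hrh4 was near its ceiling in every group of pools. It was found in 18 of 18 RIPC, 41 of 46 sham and 22 of 24 naive pools. The lowest animal was sham replicate 2 with 8 of 11. Levels averaged -0.84 ± 1.01 cycles in 3 RIPC, -1.19 ± 0.96 in 4 sham and -0.98 ± 0.34 in 3 naive animals, differences smaller than the spread between animals. Levels also moved with the number of assays detected. In pools Hrh4 averaged 0.22 cycles with 42 to 62 assays and -1.85 with 105 or more. In single neurons it averaged -0.72 and -1.09 in those bands. RIPC replicate 1, whose pools had a median of 56.5 assays, had the highest mean Hrh4 level in pools, 0.14 cycles. The part of assay number in levels by treatment, side or sample type was not tested.

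**Figure D3:**
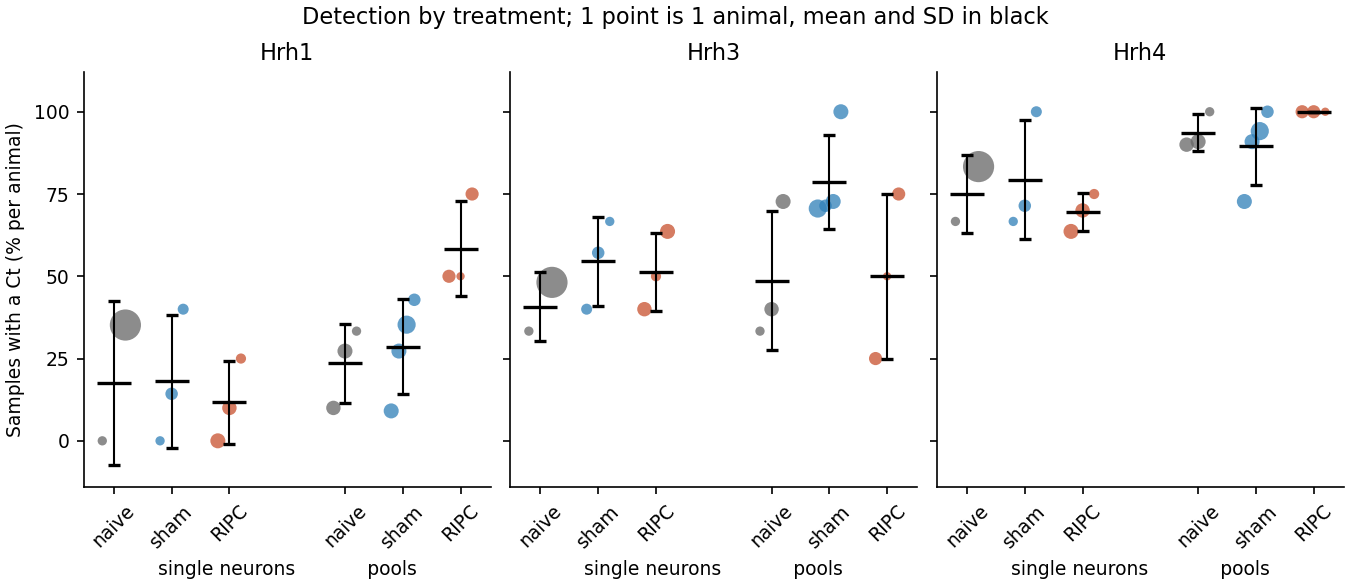
Share of samples with a Ct (percent, vertical axis) for each receptor by treatment (horizontal axis), for single neurons at the left and pools at the right of each panel. Each point is an animal, with its area growing with the number of samples, and black marks are the mean and SD over animals. In pools all 3 RIPC animals lie above the sham animals for Hrh1, whereas in single neurons the groups overlap for each gene. RIPC replicate 3 is placed there by 1 of 2 pools, at a Ct above 20 cycles.

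Single neurons of the same rats were set side by side by treatment over 2 naive, 3 sham and 3 RIPC animals. Hrh1 was found in 1 of 4, 1 of 10 and 0 of 11 neurons of RIPC replicates 1 to 3, and in 1 of 7, 0 of 3 and 2 of 5 neurons of sham replicates 1, 2 and 4. The mean was 11.7% ± 12.6 in RIPC and 18.1% ± 20.3 in sham animals, so the difference was -6.43 points (SE 14.9). Its sign turned to 4.52 points without sham replicate 4 and to 4.31 with the animal number as a replicate block. Of the 24 Hrh1-positive neurons, 19 came from naive replicate 3, where 19 of 54 neurons (35.2%) were positive. Naive replicate 2 had 0 of 3.

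The Hrh3 transcript was found in 51.2% ± 11.9 of RIPC, 54.6% ± 13.5 of sham and 40.7% ± 10.5 of naive single neurons. Sham exceeded naive animals by 13.9 points (SE 15.7). That difference was 0.21 points with animals of 1 neuron included, 29.8 with the animal number as a replicate block and 6.46 without naive replicate 2. For Hrh3 RIPC differed from sham by -3.39 points (SE 14.0), which turned to 10.3 with animals of 1 neuron included, 10.7 with every sample, 2.21 without RIPC replicate 2 and 2.64 without sham replicate 2. Hrh4 was found in 69.5% ± 5.70 of RIPC, 79.4% ± 18 of sham and 75% ± 11.8 of naive single neurons, and RIPC differed from sham by -9.82 points (SE 14.1, limma adjusted p = 0.908). The 95% limma interval of that Hrh4 difference ran from -38.7 to 19.1 points, and its sign turned to 5.66 with every sample, 0.37 with the replicate block and 0.50 without sham replicate 4.

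By limma, 0 of 122 genes passed in each of the 3 treatment contrasts of single neurons (0%), and 5, 3 and 7 genes had an unadjusted p under 0.05 for sham against naive, RIPC against naive and RIPC against sham. The genes with the smallest p were Hcrtr1, an orexin receptor, at -51.7 points (SE 15.5) for sham against naive, Ntrk2, the BDNF receptor, at 51.8 (SE 17.9) for RIPC against naive, and Npff, a neuropeptide, at 34.8 (SE 14.2) for RIPC against sham. Without naive replicate 3, which left 1 naive animal whose spread was taken to be like that of the other groups, 1 gene passed for RIPC against naive and 2 for sham against naive. None of the other monoamine receptors or of the Gq and Gi pathway genes passed.

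Left and right were set side by side in the 9 animals with at least 2 samples on each side, single neurons and pools combined. Hrh4 had a mean level of -1.59 ± 1.27 cycles on the left and -1.17 ± 1.03 on the right (n = 9), and the right was higher in 5 animals. The left minus right difference averaged -0.42 ± 1.59 cycles and ran from 2.56 in RIPC replicate 1 to -2.38 in RIPC replicate 3, with sham replicate 1 at -2.34. Among RIPC animals, replicates 2 and 3 were higher on the right and replicate 1 on the left. Hrh4 was found in 80.5% ± 16.3 of left and 88.3% ± 10.0 of right samples, with 4 animals higher on each side and 1 equal. The level difference was -0.18 cycles without RIPC replicate 3 or without sham replicate 1 and -0.79 without RIPC replicate 1, and in pools alone the share was 6.67 points higher on the left.

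Hrh1 and Hrh3 also overlapped between sides. Hrh1 was found in 20.5% ± 22.4 of left and 31.0% ± 17.3 of right samples and was more frequent on the right in 6 of 9 animals. Its left minus right difference of -10.5 points was -31.0 among samples with at least 50% of the assays and -6.44 without sham replicate 2. Pools and single neurons went opposite ways: 10 of 47 left (21.3%) and 19 of 41 right pools (46.3%) were positive, and 14 of 52 left (26.9%) and 10 of 46 right single neurons (21.7%). Hrh3 was found in 59.8% ± 18.6 of left and 57.8% ± 20.1 of right samples, a difference of 2.03 points that was -15.6 in pools alone, -2.78 without naive replicate 2 and -0.84 without sham replicate 3. Its level was -3.35 ± 0.44 cycles on the left and -3.17 ± 0.59 on the right (n = 8).

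**Figure D4:**
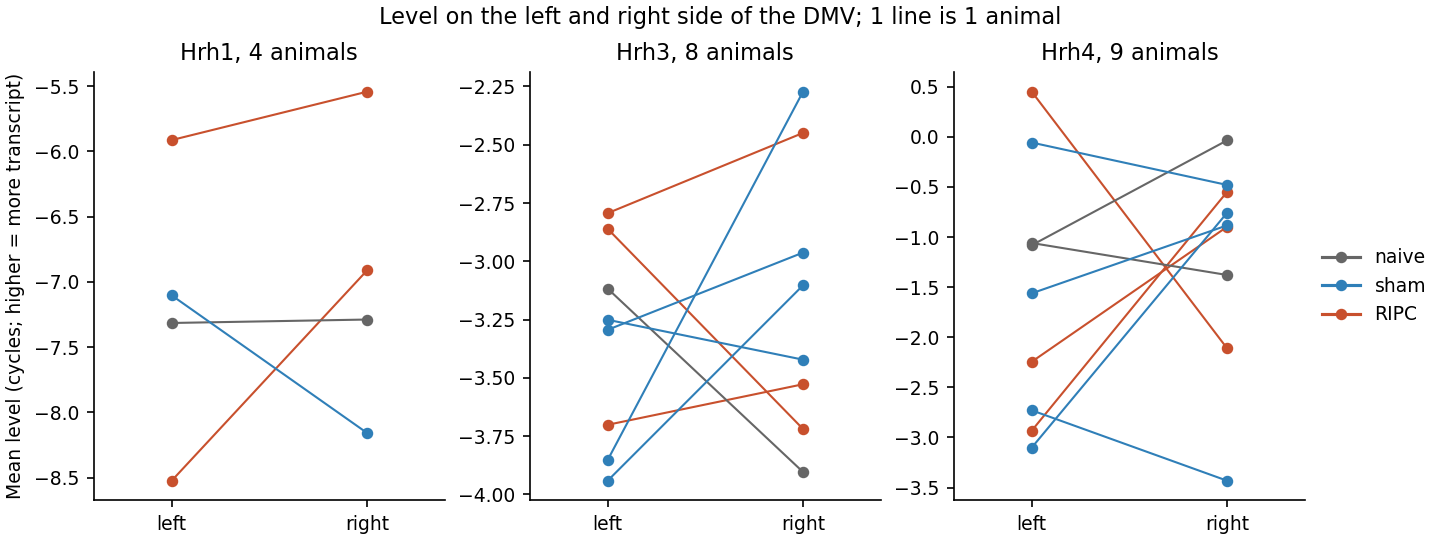
Mean level of each receptor (cycles above the sample's reference median, vertical axis) on the left and right side of the DMV, over samples with a Ct. Each line is an animal with at least 2 detected samples on each side, coloured by treatment. The lines cross for all 3 genes, and for Hrh4 the right is higher in 5 of 9 animals.

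The receptors were often found in the same sample. In single neurons 12 of 98 had all 3, 30 had Hrh3 and Hrh4, 25 had Hrh4 alone, 10 had Hrh1 and Hrh4, 5 had Hrh3 alone and 14 had none. Hrh1 was seldom found without the widely detected Hrh4. Of Hrh1-positive samples, 22 of 24 neurons and 29 of 29 pools held Hrh4. Of Hrh1-negative samples, 55 of 74 neurons (74.3%) and 52 of 59 pools (88.1%) did. The product of the shares gives 18.9 neurons and 26.7 pools with both. Hrh2 was also in 29 of 29 Hrh1-positive pools and 18 of 24 Hrh1-positive neurons. Without Hrh1 it was in 53 of 59 pools and 53 of 74 neurons. In pools 22 of 88 had all 3, where the product of the shares gives 17.6, and in single neurons the product gives 9.24.

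These combinations also moved with the number of assays detected. Samples with all 3 receptors had a median of 92.5 assays among single neurons and 106 among pools, while samples with none had 60 in both kinds. Single neurons with Hrh3 had a median of 79 assays and those without it 59.5. The part of assay number in the joint detection was not tested.

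Likeness of detection was measured by the phi coefficient over 186 samples, after removing means of animal and sample type and the number of other assays detected. All coefficients were small, and they are descriptions over samples that share animals and runs. Hrh1 was most like Chrm3, the Gq-coupled muscarinic M3 receptor (0.28), Crh, corticotropin-releasing hormone (0.24), which was found in 11 samples, and Cebpa (0.24). Hrh3 was most like Hrh2 (0.21), the calcium channel subunit Cacna1i (0.20) and the natriuretic peptide receptor Npr2 (0.19). Among the genes most like Hrh4 were the calcium-activated potassium channel Kcnn4 (0.32) and the muscarinic receptor Chrm5 (0.27). Between members the coefficients were 0.10 for Hrh4 with either of the others and 0.05 for Hrh1 with Hrh3.

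In single neurons the receptors were found with and without the transmitter markers. Hrh4 was found in 52 of 68 neurons with Chat and 25 of 30 without, and Hrh1 in 17 of 68 and 7 of 30. Hrh3 gave a Ct in 37 of 68 neurons with Chat (54.4%) and 11 of 30 without (36.7%), in 34 of 55 with Th, the catecholamine-synthesising enzyme (61.8%), and 14 of 43 without (32.6%), and in 12 of 14 with the activity gene Fos and 36 of 84 without. Neurons with Fos had a median of 96.5 assays and those without 68, and neurons with Th 75 against 63. For Gad1 or Gad2, the GABA-synthesising enzymes, Hrh4 was found in 40 of 51 neurons with either and 37 of 47 with neither. For Hrh3 the counts were 28 of 51 (54.9%) and 20 of 47 (42.6%), and for Hrh1 11 of 51 (21.6%) and 13 of 47 (27.7%).

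Glial transcript was looked at because Gfap was common. Hrh4 was found in 19 of 19 neurons without Gfap and in 58 of 79 with it. Hrh3 gave a Ct in 5 of 19 neurons without Gfap (26.3%) and 43 of 79 with it (54.4%), and Hrh1 in 3 of 19 and 21 of 79. Neurons without Gfap had a median of 61 assays and those with it 73, and the part of glial RNA in these values was not tested. Of the listed glial, vascular and mast cell markers only Gfap was on the panel, so RNA from immune cells, in which the H4 receptor is best known, was not tested. The paper states that each cap was inspected after capture and that caps with other cells than neurons were left out.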

How the data were processed

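The authors deposited threshold cycles (Ct) of 168 assays in 218 columns, exported from a microfluidic instrument with no normalization, where an assay below the detection limit has no value. The run settings of each chip were not used here, so chip was not tested as a batch. Of all deposited values 56.1% were below detection. Groups, animals, sides and cell numbers came from the labels. All 165 symbols matched RefSeq's rat table (GRCr8) with case ignored.

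Duplicate assays of a gene were averaged, as were second runs of 5 neurons, with a Ct in 1 of the runs taken as detection. Samples needed a Ct in 25% of the assays (42). That limit keeps 190 columns, and 50%, which keeps 84, was an alternative. Each animal gave 1 share or mean level per gene. Genes detected in 10% to 95% of samples were tested in R 4.3.3 by limma 3.58.1 (two-sided, moderated variances) with Benjamini-Hochberg adjustment over all genes tested and a threshold of 0.05. Genes needed 4 animals for a level. Exact permutation tests over animals were added. Animals are separate rats. The fits were tested on simulated data.

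The members and the gene lists (histamine handling, of which Hrh2 was on the panel, Gq pathway, Gi pathway, other monoamine receptors, cell type markers) were chosen with earlier results of these data known. Named genes were the members, the 3 genes most alike in detection to each, up to 4 genes per list past the threshold, and the gene with the smallest p in each contrast. One gene that this rule names is not reported here. Intervals are 95% Wilson intervals and cover counting error only. No primer or protein sequences were used here. Alternatives covered the sample filter, late Ct, second runs, scale, centring, minimum numbers, omission of single animals, and a block for animal number.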

Additional observations from a re-analysis of the deposited data

Results flagged for a closer look

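Of 14 sets of 4 to 10 animal values examined for a sample far from the others, 1 stood out, and chance flags about 1 set in 20. Hrh3 was found in 100% of the 11 pools of sham replicate 3, while the other 3 sham animals lay between 70.6% and 72.7%, a gap of 0.927 of the group's range. Its pools had a median of 99 assays with a Ct, against 87 to 105 in the others.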

How the results depend on the processing

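With at least 50% of the assays too few single neurons remained to fit the 3 tested comparisons, and these were not run. Hrh1 left the tested range when a Ct above 20 was not counted. For shares in pools against single neurons, 4 genes passed among samples with 25% to 50% of the assays, where Hrh3 differed by -31.2 points, and Hrh4 passed at 25.7 points when a Ct above 20 was not counted and at 18.9 points without a gene filter. For levels, 11 genes passed without centring, with Hrh3 at 0.51 and Hrh4 at 1.76 cycles, and 2 passed when a Ct above 20 was not counted, with Hrh4 at -0.18 cycles.

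In single neurons Hrh4, the receptor tested, did not pass under any alternative. Signs turned for Hrh1, Hrh3 and Hrh4. RIPC minus naive was -3.13 points for Hrh3 among samples with 25% to 50% of the assays and 0.93 for Hrh4 with every sample that had a Ct. RIPC minus sham was 10.3 for Hrh3 with animals of 1 neuron included, and 10.7 for Hrh3 and 5.66 for Hrh4 with every sample. Sham minus naive was -4.02 for Hrh1 with animals of 1 neuron and -4.72 for Hrh4 with every sample. The same animal number in different groups is only a number, with correlations of -0.18 to 0.23 between deviations. With it as a replicate block, RIPC minus sham was 4.31 for Hrh1 and 0.37 for Hrh4, sham minus naive was -15.3 for Hrh1 and -7.76 for Hrh4, and no gene passed.

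In pools Hrh1 moved most: sham minus naive was -21.1 points at 50% of the assays, where naive replicate 1 counted as an animal with 1 positive pool of 1 and the counts were 9 of 35 and 5 of 19 pools, and 39.6 at 25% to 50%, RIPC minus naive 14.6 with every sample, and RIPC minus sham 46.2 at 50%, -3.87 at 25% to 50% and 11.2 with late Ct not counted. For Hrh4, RIPC minus naive was -5.56 with every sample and 16.7 at 25% to 50%, and RIPC minus sham 27.1 there. Late shares at 18 and 22 cycles were 86.8% and 20.8% for Hrh1 and 17.0% and 1.89% for Hrh3. For Hrh4 they were 2.53% at 22 cycles and 1.25% at 50% of the assays. All 3 genes were found in 36.4% of single neurons at 50% of the assays and, with late Ct not counted, in 4.08% of neurons and 11.4% of pools. The causes were not tested.

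Leaving out each animal gave 5 to 56 genes called for shares in pools against single neurons, 0 to 1 for RIPC against naive and 0 to 2 for sham against naive neurons. RIPC minus naive ran from -23.5 to 11.7 points for Hrh1 and from -13.8 to 2.88 for Hrh4. RIPC minus sham ran from -15.5 to 4.52 for Hrh1, from -10.7 to 2.64 for Hrh3 and from -16.2 to 0.50 for Hrh4. Sham minus naive ran from -17.1 to 18.1 for Hrh1 and from -5.95 to 12.7 for Hrh4. One RIPC replicate 3 neuron carries a title prefix used for a different rat. Omitting it, an alternative added after seeing the data, left 19 genes called in place of 23 and ended the call of Rgs3 (limma adjusted p = 0.0512). Apart from the omission of animals, 274 other recomputed values counted as unchanged. They stayed on their side of the threshold or, untested, moved by less than the spread between animals or the counting interval. Counts of called genes among them could change by a limited factor. Of the 274 values, 8 turned sign, all differences between treatments in pools or between sides. Besides these, 21 values moved further, 14 fitted differences turned sign, 6 gained a call and 10 lost one. Few neurons per animal limit every share.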
